A study of Mus musculus with 6 samples.

Results

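The genes described here are 10 immediate early genes of the mouse: the zinc-finger factors Egr1, Egr2 and Egr3, the orphan nuclear receptors Nr4a1, Nr4a2 and Nr4a3, and Ier2, Ier3, Dusp1 and Btg2. They were chosen by name, with earlier results of these data known. Their values are those of the probe sets that the array's annotation pairs with exactly 1 gene. All 10 genes were measured, by 20 of the 45037 non-control probe sets, among 18193 genes in all. The series compared Ebf2-positive cells (3 arrays) with Ebf2-negative cells (3 arrays), Ebf2 being an early B-cell factor transcription factor of immature mesenchymal cells. Both groups were taken fresh, by sorting, from the marrow of wild-type C57BL/6 mice with no treatment, and both lacked surface CD45 (leukocytes), TER119 (erythroid cells) and CD31 (endothelial cells). RNA of 1000 or 2000 adult cells per sample was amplified and hybridized to Affymetrix MOE430_2 arrays. How Ebf2 was detected, whether animals were pooled, and which array had which cell number could not be read from the labels. The labels also do not say that replicates came from separate animals, so the spread behind each p-value is that between samples and may be technical.

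Immediate early genes are transcribed within minutes of a stimulus, with no need for new protein. Growth factors, mechanical force and stress act on them through MAP kinases, which activate the serum response factor with its ternary complex partners, and through CREB, which binds cyclic AMP response elements (CREs). Some of the products are transcription factors, such as the EGR and NR4A proteins, and others, such as Dusp1, switch the signal off again. Their messages are short-lived.

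The sort gene, the gated markers and the cell types in the samples set the frame for these values. Ebf2 itself was at 8.33 ± 0.41 in Ebf2-positive cells and 3.66 ± 0.49 in Ebf2-negative cells (log2 RMA signal, mean ± SD, n = 3 each). RMA signal is the background-corrected, quantile-normalised brightness of a probe set, and every level below is its log2 unless a summed linear signal is named. Each difference is Ebf2-positive minus Ebf2-negative. Of 18193 genes tested with limma, 24.4% passed an adjusted p of 0.05, which is what "called" means below. Of all genes, 10.8% were called higher and 13.6% lower. At an unadjusted p below 0.05, 36.0% of all genes and 28.2% of all probe sets passed, in either direction. The 8 fibroblast markers and the 8 pericyte and smooth muscle markers were all called higher, and all 7 measured erythroid markers were called lower. The summed linear signal of the erythroid markers was 250 to 608 on the Ebf2-positive arrays and 6466 to 9223 on the Ebf2-negative arrays. For the fibroblast markers it was 33826 to 39670 on the Ebf2-positive and 1768 to 4605 on the Ebf2-negative arrays, and for the pericyte markers 21238 to 24084 and 816 to 1604. None of 8 leukocyte and macrophage markers was called (2 had an unadjusted p below the threshold, both lower). Among the gated proteins, the gene of CD45, Ptprc, was at 5.68 ± 1.81 in Ebf2-positive cells and 8.33 ± 0.41 in Ebf2-negative cells (difference -2.65, adjusted p = 0.0698). The groups thus differed in markers of other cell types, whose part in the differences of the immediate early genes was not tested. In such bulk samples fewer cells of a type and less RNA per cell cannot be told apart.

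Egr1, Nr4a1 and Dusp1 were higher in Ebf2-positive cells, by 5.08-fold, 6.25-fold and 3.41-fold, and no gene of the 10 was called lower. With 1 probe set per gene, that with the highest mean over the 6 arrays, 3 of 10 genes were called higher, against the 10.8% of all genes, and 0 lower, against 13.6%. All 10 differences were positive, against 55.2% of all genes. Those of Egr3 and Btg2 turned negative in at least 1 of the fits that left out 1 array. The groups did not overlap for 6 of the 10 genes, against 21.8% of all genes with every Ebf2-positive array above every Ebf2-negative one. The reverse order was seen for 0 of the 10 genes and 21.2% of all genes. The median difference was 0.97, beside 0.07 over all genes. Further probe sets of Egr3 and Nr4a3 were also called higher in the fit of all probe sets, where 6.39% of probe sets were called higher. For these 2 probe sets, however, all or most Ebf2-negative values were below the array medians. The spiked poly-A control probe sets had mean log2 signals of 12.16, 12.23 and 12.58 on the Ebf2-positive arrays, higher than the 10.31, 8.70 and 10.52 of the Ebf2-negative arrays, and centring on them shifted every difference by -2.48. With that scaling 0 of the 10 genes were called higher and 5 lower, beside 227 higher and 15596 lower of all 18193 genes. All directions given here are therefore relative to the other genes on the arrays.

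**Figure D1:**
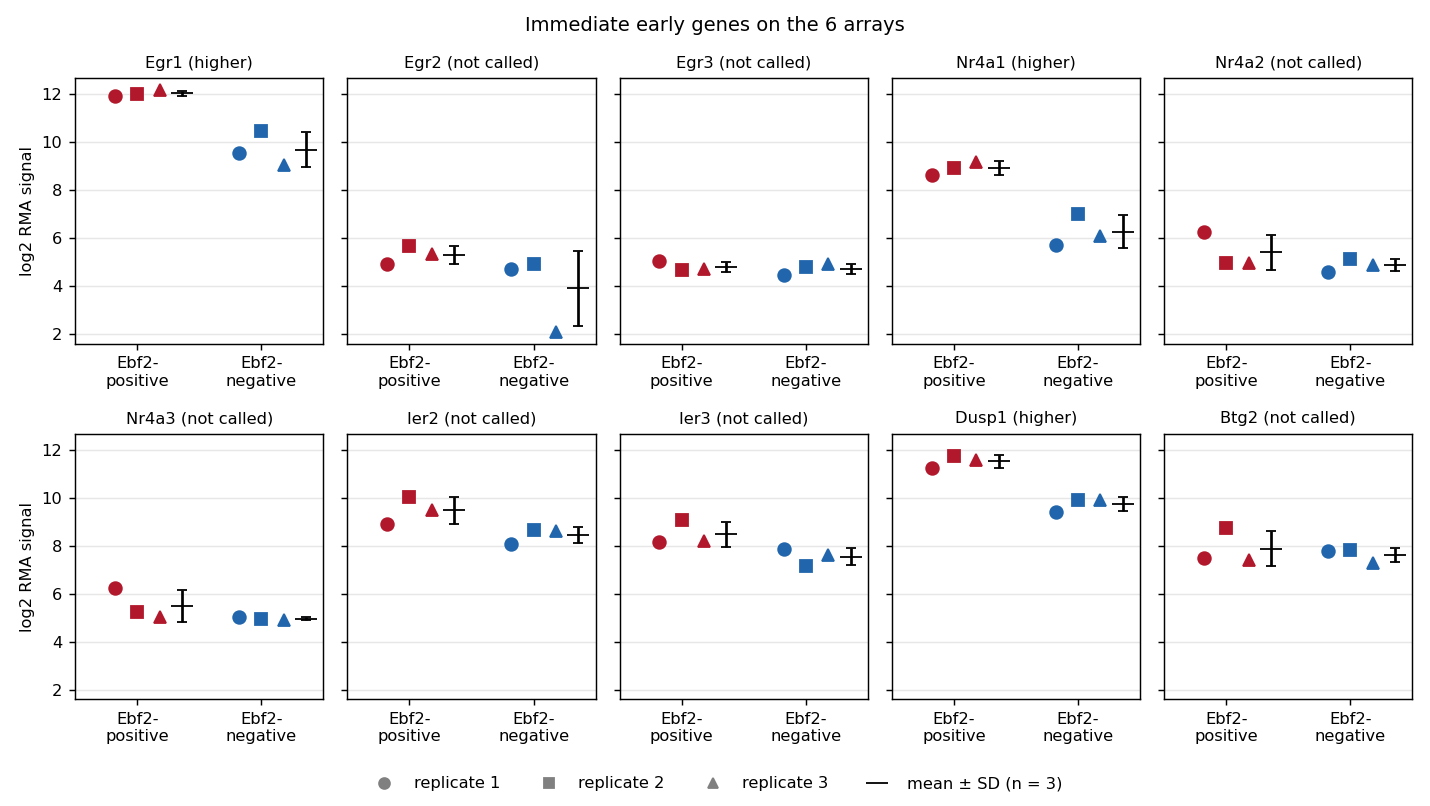
Log2 RMA signal (y axis) of the probe set with the highest mean of each of the 10 genes, on the 3 Ebf2-positive and the 3 Ebf2-negative arrays. Points are single arrays, bars are mean ± SD (n = 3), and panel titles give the limma call. Egr1, Nr4a1 and Dusp1 have separate groups with gaps wider than the spread within them, whereas the groups of Egr3, Nr4a2, Nr4a3 and Btg2 overlap.

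The EGR proteins bind GC-rich sites through 3 zinc fingers, and Egr1 is the member most widely induced by growth factors. Egr1 signal was 11.95, 12.01 and 12.16 in Ebf2-positive cells, against 9.54, 10.48 and 9.07 in Ebf2-negative cells. The Ebf2-positive arrays lay in a narrow band above all Ebf2-negative arrays, of which replicate 2 was the highest. The difference was 2.34 (SE 0.37, 95% interval 1.46 to 3.23; limma with Benjamini-Hochberg adjustment over all genes, adjusted p = 0.00586). The spread was smaller in Ebf2-positive cells (SD 0.11) than in Ebf2-negative cells (SD 0.72), and the call was kept on leaving out any single array (adjusted p up to 0.0282).

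Egr2, known for its part in hindbrain patterning and in myelination by Schwann cells, has 2 probe sets. The probe set 1427683_at stood at 4.93, 5.66 and 5.34 in Ebf2-positive cells and at 4.71, 4.92 and 2.11 in Ebf2-negative cells. The groups did not overlap, and the difference of 1.40 (95% interval -0.40 to 3.19) was not called (adjusted p = 0.238) and rests largely on Ebf2-negative replicate 3, without which it was 0.49. On the other probe set, 1427682_a_at, Ebf2-negative replicate 3 was again far below the rest, at 1.48 against 4.77 and 5.05 on the other Ebf2-negative arrays and 5.11, 5.85 and 5.02 on the Ebf2-positive ones. Both values of Ebf2-negative replicate 3 were below that array's median of 3.72 and were not shown to be above background, so the size of the Egr2 difference is uncertain.

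Egr3, a factor of muscle spindle development and a target of NFAT and MAP kinase signalling, gave different results with its 2 probe sets. The probe set 1421486_at did not separate the groups, at 5.05, 4.67 and 4.73 in Ebf2-positive cells and 4.48, 4.79 and 4.91 in Ebf2-negative cells (difference 0.09, 95% interval -0.42 to 0.60, adjusted p = 0.796). The probe set 1436329_at was at 7.67, 5.09 and 6.49 in Ebf2-positive cells and at 1.28, 3.62 and 2.60 in Ebf2-negative cells. Its groups did not overlap, although each spanned more than 2 log2 units. The difference of 3.91 (SE 0.82, 95% interval 1.93 to 5.90) was called in the fit of all 45037 probe sets (limma, adjusted p = 0.0254), where 6.39% of probe sets were called higher. All 3 Ebf2-negative values were below the array medians of 3.69 to 3.80, and with no detection calls in the files they were not shown to be above background, so the size of the difference is uncertain. It was no longer called without Ebf2-positive replicate 1 or 3 or Ebf2-negative replicate 1 or 3 (adjusted p 0.0588 to 0.0878). The means of the 2 probe sets over all 6 arrays lay close together, at 4.77 and 4.46, so the choice of the probe set decided whether Egr3 was counted.

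The NR4A receptors act without a known natural ligand and bind DNA as monomers, as pairs, or, for Nr4a1 and Nr4a2, with a retinoid X receptor. Nr4a1, also called Nur77 and best known from T-cell receptor signalling, was at 8.62, 8.94 and 9.20 in Ebf2-positive cells and at 5.72, 7.03 and 6.08 in Ebf2-negative cells. The lowest Ebf2-positive array was above the highest Ebf2-negative array, again replicate 2, by more than the whole range within the Ebf2-positive group. The difference was 2.64 (SE 0.37, 95% interval 1.75 to 3.54, adjusted p = 0.00409). It was called on leaving out any single array, with an adjusted p of at most 0.0227.

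Nr4a3, also called Nor1, has 3 probe sets that did not give 1 answer. On 1438796_at the signal was 7.70, 6.29 and 6.27 in Ebf2-positive cells, against 3.31, 3.28 and 4.47 in Ebf2-negative cells. The groups were separate, and the difference of 3.07 (SE 0.51, 95% interval 1.83 to 4.31) was called (limma over all probe sets, adjusted p = 0.0121). Ebf2-negative replicates 1 and 2 were below the array medians, so here too the size is uncertain. Without Ebf2-negative replicate 1 it was 2.88 with an adjusted p of 0.0509. The probe set 1421080_at, which represented the gene by its slightly higher mean, stood at 6.26, 5.22 and 5.01 in Ebf2-positive cells and 5.02, 4.94 and 4.89 in Ebf2-negative cells (difference 0.55, 95% interval -0.28 to 1.38, adjusted p = 0.312). Here Ebf2-positive replicate 1 was above the other 5 arrays, which lay close together. The third, 1421079_at, was below the array medians in both groups, at 2.59 to 2.82 in Ebf2-positive cells and 1.74 to 2.53 in Ebf2-negative cells, and was not called (adjusted p = 0.178).

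Nr4a2, or Nurr1, a factor of midbrain dopamine neurons, was not called on any of its 6 probe sets. The representative, 1450749_a_at, was at 6.27, 4.99 and 4.97 in Ebf2-positive cells and 4.61, 5.12 and 4.89 in Ebf2-negative cells (difference 0.53, 95% interval -0.41 to 1.48, adjusted p = 0.386). As for Nr4a3, Ebf2-positive replicate 1 was above the other 5 arrays. The difference fell to 0.11 without that array. The other 5 probe sets differed by -0.14 to 0.95, and only 1450750_a_at had separate groups, at 3.74, 4.46 and 4.34 in Ebf2-positive cells and 3.31, 3.53 and 2.86 in Ebf2-negative cells (adjusted p = 0.0757, and 0.0433 without Ebf2-positive replicate 1). These intervals do not exclude a rise of Nr4a2 of the size seen for Dusp1 on 1447863_s_at and 1455034_at, whose upper bounds were 2.08 and 1.94.

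Dusp1 encodes MAP kinase phosphatase 1, a nuclear enzyme that inactivates p38, JNK and ERK. Its signal was 11.24, 11.73 and 11.59 in Ebf2-positive cells and 9.42, 9.91 and 9.92 in Ebf2-negative cells. The groups were separate and similarly tight (SD 0.25 and 0.29). The difference of 1.77 (SE 0.24, 95% interval 1.19 to 2.35) was called (adjusted p = 0.00352) and stayed between 1.60 and 1.91 on leaving out single arrays, all with an adjusted p of at most 0.0165.

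Ier2 and Ier3 had smaller differences that did not pass the threshold, although their groups did not overlap. Ier2, a nuclear protein induced by growth factors, was at 8.92, 10.03 and 9.50 in Ebf2-positive cells and 8.08, 8.67 and 8.62 in Ebf2-negative cells. Its difference was 1.03 (95% interval 0.22 to 1.83, adjusted p = 0.0727), and it passed without Ebf2-positive replicate 1 (1.31, adjusted p = 0.0318), with the arrays centred on their 75th percentile (adjusted p = 0.0445), with a further quantile normalization (adjusted p = 0.0342) and with the replicate number as a block (adjusted p = 0.0396). Ier3, a stress-induced regulator of cell survival, was at 8.16, 9.06 and 8.20 in Ebf2-positive cells and 7.89, 7.17 and 7.61 in Ebf2-negative cells (difference 0.92, 95% interval 0.13 to 1.71, adjusted p = 0.0932). It passed as higher only after a further quantile normalization (adjusted p = 0.0376). With poly-A centring Ier3 was called lower (-1.56, adjusted p = 0.0433).

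Btg2, an antiproliferative p53 target that recruits the CCR4-NOT deadenylase to messages, followed 1 array and not the groups. The probe set 1448272_at was at 7.51, 8.74 and 7.41 in Ebf2-positive cells and 7.79, 7.82 and 7.28 in Ebf2-negative cells (difference 0.26, 95% interval -0.70 to 1.21, adjusted p = 0.688). On 1416250_at the signal was 4.31, 7.28 and 4.64 in Ebf2-positive cells and 4.69, 4.63 and 4.19 in Ebf2-negative cells. Ebf2-positive replicate 2 was above all other arrays on both probe sets, and without it the differences were -0.17 and -0.03. Among the Ebf2-positive arrays, replicate 2 was also the highest for Egr2, Ier2, Ier3 and Dusp1, while replicate 1 was the highest for Egr3, Nr4a2 and Nr4a3. The summed linear signal of the neutrophil markers, cells that the CD45 gate should remove, was 4121, 10923 and 4728 on Ebf2-positive replicates 1, 2 and 3. On the Ebf2-negative arrays it was 6195, 11866 and 9400. The part of these cells in the Btg2 signal was not tested.

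**Figure D2:**
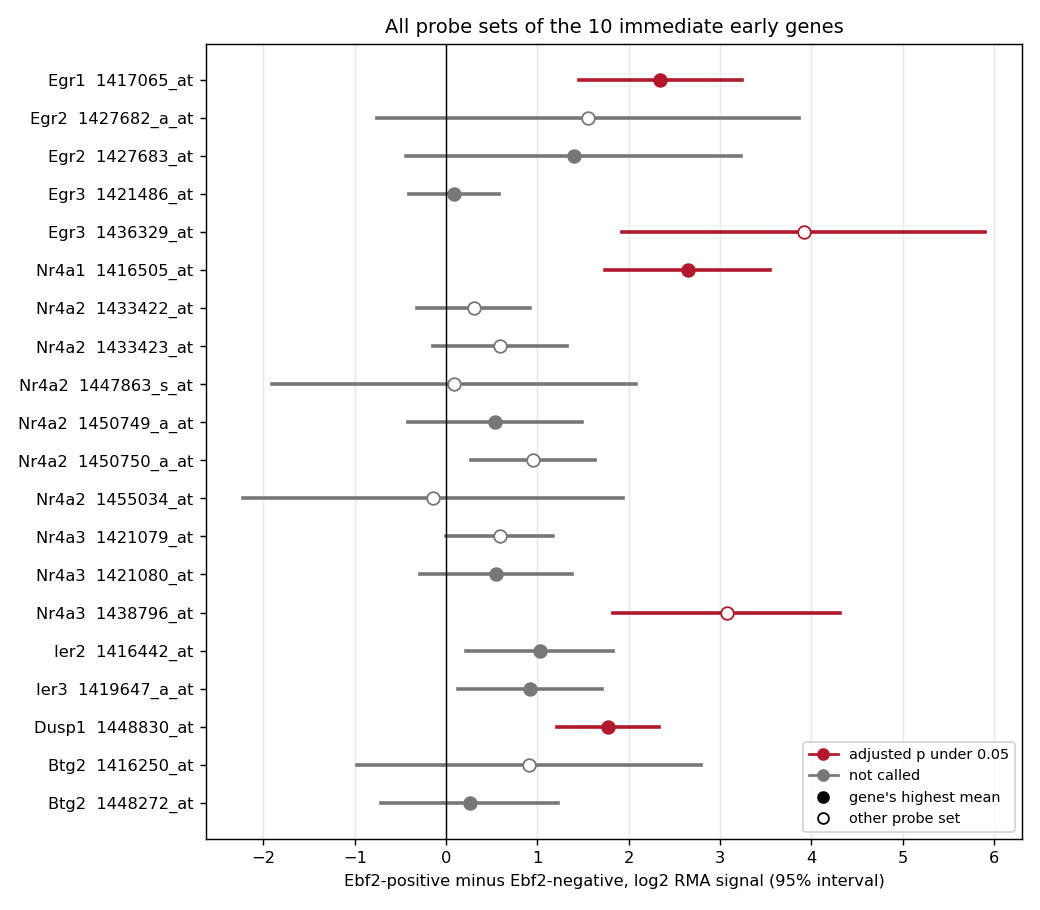
Difference between Ebf2-positive and Ebf2-negative cells (x axis, log2 RMA signal) for each of the 20 probe sets, with 95% intervals from limma. Filled points are the probe set with the gene's highest mean, open points the others. The called probe sets are those of Egr1, Nr4a1 and Dusp1 and 1 probe set each of Egr3 and Nr4a3, whose other probe sets differ by 0.09 and by 0.55 and 0.58.

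At the level of probe sets, 5 of 20 were called higher and 0 lower, against 6.39% and 8.76% of all probe sets, and 0 were lower at an unadjusted p as well. The groups did not overlap, with Ebf2-positive arrays on top, for 10 of 20, against 19.1% of all probe sets. Ebf2-negative arrays were on top for 0 of 20, against 16.9%. Of the 20 differences, 19 were positive, against 57.9% of all probe sets. Averaging all probe sets of a gene in place of the one with the highest mean gave 5 called genes of the 10. The additions were Egr3 (2.002, adjusted p = 0.0228) and Nr4a3 (1.40, adjusted p = 0.0139), and 1991 of all genes were called higher. Taking the probe set with the highest group mean gave the same count of 5, with 2018 of all genes called higher. This last choice was made after the values were seen and favours probe sets differing between the groups. The count of called probe sets was 3 without Ebf2-negative replicate 1.

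Promoter sequences are shown for Nr4a1, Nr4a3 and Dusp1, 3 of the genes with a called probe set, since CREB sites are part of the known control of these families. The sequences are RefSeq's for GRCm38.p6, 250 bases before the gene's start, 5' to 3' on the gene's strand: chr15:101266596-101266845 (plus strand) for Nr4a1, chr4:48045055-48045304 (plus) for Nr4a3 and chr17:26508473-26508722 (minus) for Dusp1. Capitals mark TGACG, the core of a CRE, on either strand.
Nr4a1: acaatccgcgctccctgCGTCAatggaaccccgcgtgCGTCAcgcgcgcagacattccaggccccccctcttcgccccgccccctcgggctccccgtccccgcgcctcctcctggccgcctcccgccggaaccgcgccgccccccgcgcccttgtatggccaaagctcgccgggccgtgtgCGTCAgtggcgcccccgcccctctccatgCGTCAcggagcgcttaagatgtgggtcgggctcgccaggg
Nr4a3: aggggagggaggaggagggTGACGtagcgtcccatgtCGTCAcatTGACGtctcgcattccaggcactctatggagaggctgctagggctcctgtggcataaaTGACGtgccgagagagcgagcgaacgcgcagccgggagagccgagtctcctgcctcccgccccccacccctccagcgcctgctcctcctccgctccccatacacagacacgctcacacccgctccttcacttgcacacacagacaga
Dusp1: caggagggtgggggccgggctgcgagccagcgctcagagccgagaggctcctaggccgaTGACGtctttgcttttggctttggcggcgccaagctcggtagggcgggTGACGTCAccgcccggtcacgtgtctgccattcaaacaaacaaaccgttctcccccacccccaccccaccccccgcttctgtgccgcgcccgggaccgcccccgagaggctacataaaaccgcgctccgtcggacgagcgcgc
The core occurs 4 times for Nr4a1, 4 times for Nr4a3 and 3 times for Dusp1, where 2 of the matches overlap in 1 full palindromic site, TGACGTCA. Promoters of 7 of the 10 genes were available, and those of Egr1, Egr3 and Ier2 were not searched. Of the 7, 6 held TGACG in at least 1 window (Egr2, Nr4a1, Nr4a2, Nr4a3, Dusp1 and Btg2), against 19.8% of 27025 genes. The full site, which contains the core on both strands, was found for Dusp1 and Btg2, against 1.77% of genes. Among the 7, the CArG box of serum response factor was found for Egr2 alone, against 1.62% of genes. The EGR site GCGTGGGCG and the NR4A site AAAGGTCA were in no window of the 7 genes (0.622% and 1.55% of genes), and the variant EGR site GCGGGGGCG was in that of Nr4a1 (2.93% of genes). Among the 7 only Ier3 lacked the core, so called and uncalled genes could not be compared for it. Any part of these sites in the calls was not tested.

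Corepressors and partners of the EGR and NR4A proteins were in part higher too. Of 6 such genes, 3 were called higher and 0 lower, against 10.8% and 13.6% of all genes (limma). At an unadjusted p 0 were lower as well, and the median difference was 0.99. Nab2, an EGR corepressor that EGR proteins themselves induce, was at 6.08 ± 0.29 in Ebf2-positive cells and 3.84 ± 0.47 in Ebf2-negative cells (difference 2.24, adjusted p = 0.00341). Its relative Nab1 differed by 1.72 (adjusted p = 0.00299) and Rxra, the retinoid X receptor alpha, by 1.84 (adjusted p = 0.0136). Rxra lost its call without Ebf2-negative replicate 1 or 3 (adjusted p = 0.0530 and 0.0585), and with the mean of all probe sets neither Nab1 (adjusted p = 0.0867) nor Rxra (adjusted p = 0.102) was called. All 3 differences turned negative with poly-A centring.

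Factors that induce immediate early genes gave a count near that of all genes. Of 11 measured genes, 2 were called higher, a share near the 10.8% of all genes, and 0 lower (limma). At an unadjusted p, 4 of the 11 were higher and 0 lower, beside 36.0% of all genes in either direction. The median difference of the 11 was 0.03, beside 0.07 over all genes. The 2 were the coactivators Mrtfb, of serum response factor (1.41, adjusted p = 0.0217), and Crtc3, of CREB (1.26, adjusted p = 0.0172). Mrtfb lost its call without Ebf2-positive replicate 1 or 3 or Ebf2-negative replicate 1 or 3 (adjusted p 0.0541 to 0.0754) and with the replicate block (adjusted p = 0.0547), and Crtc3 without Ebf2-negative replicate 3 (adjusted p = 0.0540). The count was 1 without Ebf2-positive replicate 3 or Ebf2-negative replicate 1, and 0 when Ebf2-negative replicate 3 was left out. Both differences were negative with poly-A centring. Of 12 measured kinases of the MAP kinase cascade, 0 were called higher and 2 lower (limma), with a median of -0.49. The share called lower was near the 13.6% of all genes. At an unadjusted p, 1 of the 12 was higher and 6 were lower, beside 36.0% of all genes in either direction. The 2 were Map2k2, a kinase of ERK (-1.05, adjusted p = 0.0338), and Mapk8, the kinase JNK1 (-0.79, adjusted p = 0.0253). Among the fits that left out 1 array, Map2k2 was called only without Ebf2-negative replicate 1 (otherwise adjusted p 0.0669 to 0.113) and Mapk8 only without Ebf2-positive replicate 2 (otherwise 0.0537 to 0.106). Neither was called with the replicate block (adjusted p = 0.0634 and 0.0638) or after a further quantile normalization (0.0985 and 0.0612), and the mean of all Mapk8 probe sets differed by 0.40.

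Feedback inhibitors of the same pathway were called higher for 4 of 15 measured genes and lower for 0, with a median of 0.65. Of all genes, 10.8% were called higher and 13.6% lower (limma). At an unadjusted p, 5 of the 15 were higher and 0 lower, beside 36.0% of all genes in either direction. Spry2, an inhibitor of receptor tyrosine kinase signalling, was at 9.12 ± 0.37 in Ebf2-positive cells and 5.74 ± 0.40 in Ebf2-negative cells (difference 3.38, 10.4-fold, adjusted p = 0.000849). Its relative Spry1 differed by 2.10 (adjusted p = 0.0234), and the phosphatases Dusp16 and Dusp8, which act on JNK and p38, by 1.70 (adjusted p = 0.0175) and 1.26 (adjusted p = 0.0346). The call of Spry1 was lost without Ebf2-positive replicate 1 or 2 or Ebf2-negative replicate 1 or 3 (adjusted p 0.0516 to 0.0845), that of Dusp16 without Ebf2-negative replicate 2 or 3 (adjusted p = 0.0628 and 0.0607), and that of Dusp8 without Ebf2-positive replicate 1 or 3 or Ebf2-negative replicate 1 or 3 (adjusted p 0.0803 to 0.123), with the replicate block (adjusted p = 0.0829) and with a variance trend in eBayes (adjusted p = 0.0555). The count fell to 2 without Ebf2-positive replicate 1 or Ebf2-negative replicate 1 and to 1 without Ebf2-negative replicate 3. Dusp8, Dusp16 and Spry1 turned negative with poly-A centring, when Spry2 was at 0.90 (adjusted p = 0.244). The mean of all Spry2 probe sets differed by 1.60.

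Other immediate early genes were for the most part called higher. The AP-1 subunits, which form dimers of Fos and Jun proteins, were called higher for 7 of 9 genes and lower for 0 (limma). The shares over all genes were 10.8% and 13.6%. At an unadjusted p 0 of the 9 were lower, and their median difference was 1.76. Atf3 (3.38, adjusted p = 0.00333), Fosl2 (3.10, adjusted p = 0.000672), Jun (2.77, adjusted p = 0.000517) and Fos (1.83, adjusted p = 0.00299) had the largest differences. With poly-A centring Atf3 was at 0.90, Fosl2 at 0.62, Jun at 0.29 and Fos at -0.65. Of the 9 genes, 0 were then called higher and 2 lower, beside 227 and 15596 of all genes. The mean of all Fosl2 probe sets differed by 1.48. Of 32 further immediate early genes, 18 were called higher and 1 lower, against the same shares of all genes, with a median of 1.13. Klf4, a Krüppel-like factor, was at 11.42 ± 0.27 in Ebf2-positive cells and 7.06 ± 1.19 in Ebf2-negative cells (difference 4.35, 20.4-fold, adjusted p = 0.0033). It was followed by Klf2, a Krüppel-like factor induced by shear stress in endothelium (3.34, adjusted p = 0.00845), Ccn1, a matricellular protein whose probe set carries the suffix for possible cross-hybridisation (3.04, adjusted p = 0.00155), and the small GTPase Rhob (7.98-fold, adjusted p = 0.00333). Myc, a driver of growth and division named after its value was seen as the only lower gene, was at 6.53 ± 0.17 in Ebf2-positive cells and 8.31 ± 0.35 in Ebf2-negative cells (-1.78, adjusted p = 0.00356). The count of lower genes was 2 without Ebf2-negative replicate 2. With poly-A centring 1 of the 32 was called higher, Klf4 (1.87, limma, adjusted p = 0.0153), and 12 were called lower. Whether these lists differ from the 10 genes was not tested.

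Relatives of Btg2 and stress genes did not share 1 direction. Of 9 measured BTG, TOB and CCR4-NOT genes, 0 were called, against 24.4% of all genes (limma), with a median of 0.06. At an unadjusted p, 2 of the 9 were higher and 0 lower, beside 36.0% of all genes in either direction. Btg1, the closest relative of Btg2 in the list, differed by 1.004 (adjusted p = 0.068) and passed after a further quantile normalization (1.20, adjusted p = 0.0377) and with 75th percentile centring (adjusted p = 0.0442). The deadenylase subunit Cnot6 differed by -1.07 (adjusted p = 0.304), by -1.80 without Ebf2-positive replicate 3 (adjusted p = 0.0305), by -0.43 without Ebf2-positive replicate 1 (adjusted p = 0.627) and by -1.83 as the mean of its probe sets (adjusted p = 0.0072). Of 10 heat shock genes, 3 were called higher and 5 lower, against 10.8% and 13.6% of all genes, with a median of -0.98. The small heat shock protein gene Hspb1 (3.04, adjusted p = 0.00812) and the inducible Hspa1a (2.28, adjusted p = 0.00329), whose near-identical copy Hspa1b may share its signal, were higher. The mitochondrial chaperonin genes Hspe1 (-2.76, adjusted p = 0.00261) and Hspd1 (-2.43, adjusted p = 0.00173) were lower. The count of lower genes was 3 without Ebf2-negative replicate 1 or 3, and Hspe1 differed by -1.80 without probe sets that may cross-hybridise. With poly-A centring Hspa1a turned negative and Hspb1 was at 0.56 (limma, adjusted p = 0.475).

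**Figure D3:**
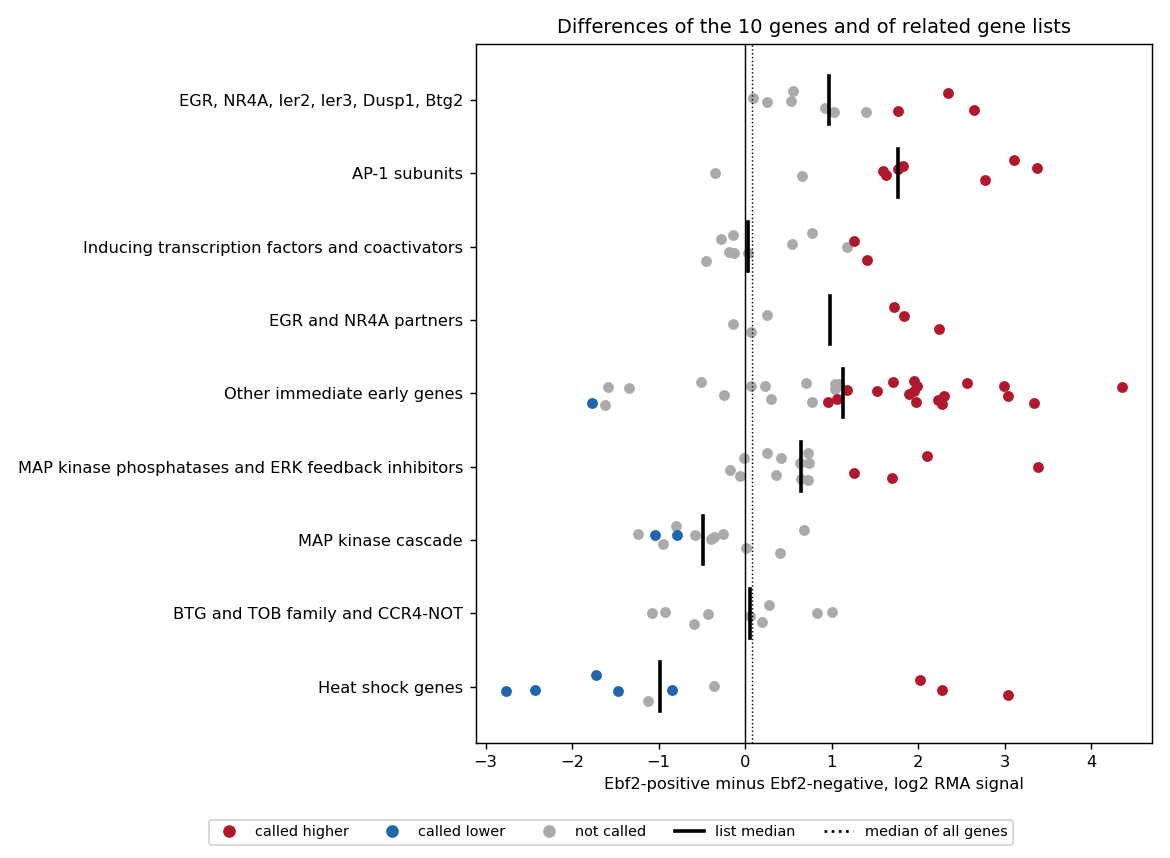
Difference between Ebf2-positive and Ebf2-negative cells (x axis, log2 RMA signal) of each gene of the 10 and of 8 related lists (rows), with 1 probe set per gene. Points are genes, coloured by the limma call, thick bars are list medians and the dotted line is the median of all genes (0.07). The medians of the 10 genes (0.97), the AP-1 subunits (1.76) and the other immediate early genes (1.13) lie to the right of it, and that of the MAP kinase cascade (-0.49) to the left.

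Within each group, replicate 2 had the highest mean of the 10 genes with 1 probe set each and the highest sums of several cell type markers. Over all 20 probe sets the order differed among the Ebf2-positive arrays, where replicate 1 was the highest (6.59, 6.39 and 6.24), while replicate 2 stayed the highest among the Ebf2-negative arrays (5.17, 5.45 and 5.09). Replicate 2 also had the lowest ratio of actin 3' to 5' probe set signal, a sign of RNA and amplification quality, with 31.4, 14.01 and 27.3 on the Ebf2-positive arrays, against 24.2, 15.9 and 19.5 on the Ebf2-negative ones. Among the Ebf2-negative arrays, replicate 2 was the highest for 6 of the 10 genes, namely Egr1, Egr2, Nr4a1, Nr4a2, Ier2 and Btg2, and the mean over the 10 genes was 6.73, 7.09 and 6.54 on replicates 1, 2 and 3. The summed linear signal of the fibroblast markers on the same arrays was 1768, 4605 and 1817, that of the pericyte markers 1046, 1604 and 816, and that of the reticular stromal markers (Cxcl12, Lepr, Kitl and Adipoq) 2964, 8267 and 3181. On the Ebf2-positive arrays the mean over the 10 genes was 7.89, 8.11 and 7.81, and the reticular stromal sum 4520, 8371 and 3737. The pericyte sum on Ebf2-positive replicates 2 and 3 was nearly equal (24084 and 24062). The endothelial markers, 1 of 6 called higher, summed to 424, 1016 and 386 in Ebf2-positive cells, against 175, 358 and 106 in Ebf2-negative cells, and 0 of 5 measured B lineage markers were called (limma; 0 higher and 1 lower at an unadjusted p). The part of these cells and of RNA quality in the immediate early signal was not tested. Egr1, Nr4a1 and Dusp1 remained called when replicate 2 of either group was left out. These fits keep the fibroblast and erythroid marker differences between the groups, so they do not test the part of such cells.

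**Figure D4:**
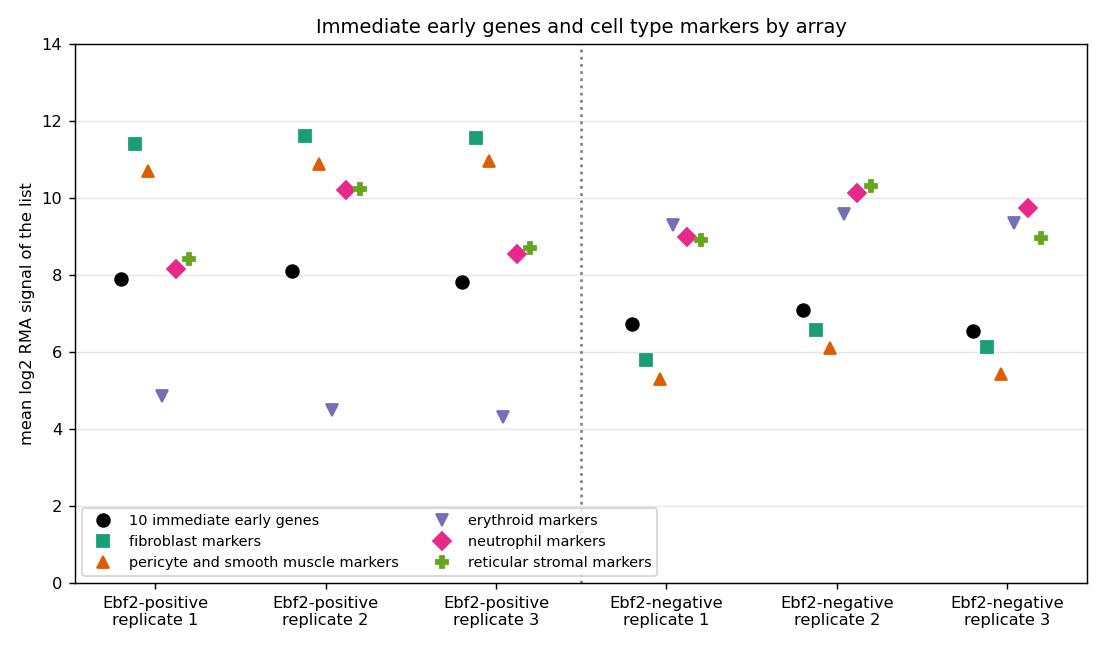
Mean log2 RMA signal (y axis) of the 10 immediate early genes and of 5 lists of cell type markers on each array (x axis). The immediate early genes lie between 7.81 and 8.11 on the Ebf2-positive arrays and between 6.54 and 7.09 on the Ebf2-negative arrays, and with 1 probe set per gene replicate 2 is the highest in each group.

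The genes whose profile over the 6 arrays was most like the mean of the 10 genes were P3h3, a collagen-modifying enzyme, Cavin2, a protein of caveolae, Pdgfrl, a protein related to platelet-derived growth factor receptors, Bcl6, a transcriptional repressor, and Svep1, an extracellular adhesion protein. Their Pearson correlations with that mean were 0.9997, 0.9994, 0.998, 0.997 and 0.997 among 7173 genes with a mean log2 signal of at least 6. These values describe 6 arrays in 2 groups, and the difference between the groups makes up most of each profile. Cavin2, for instance, was at 9.75, 10.31 and 9.71 in Ebf2-positive cells and 7.47, 8.16 and 7.04 in Ebf2-negative cells.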

How the data were processed

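Affymetrix MOE430_2 arrays measured the RNA of 6 samples, 3 per group. The intensity values deposited by the authors, 1 per probe set and array, were made with RMA, per the submitters' processing notes; no version of it is stated there. They are on a linear scale, and log2 was taken. The number of arrays limits the precision, and quantile normalization within RMA hides differences in total RNA.

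The 64 control probe sets were left out. By GEO's array annotation, 34945 probe sets name exactly 1 gene, 932 name several and 9160 name none. Each of 18193 genes was represented by its brightest probe set (mean log2 over the 6 arrays). The comparison of the groups used lmFit and eBayes of limma 3.58.1 under R 4.3.3 (two-sided tests, Benjamini-Hochberg adjustment over all genes, or over all 45037 probe sets in the probe-set fit), with a threshold of 0.05, and the fit was tested on simulated data. Promoters came from RefSeq tables for GRCm38.p6. The members, lists and tests were chosen with earlier results of these data known. Genes named were the 10 members, up to 4 called genes with the largest differences of each of 8 related lists (up to 2 with the highest mean where none was called) and the 5 genes with the most similar profile; marker lists are given as counts and sums. Alternatives were other scalings, filters, probe set choices, variance models, array weights, the replicate block and leaving out single arrays. Figures were drawn with matplotlib 3.10.9.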

Additional observations from a re-analysis of the deposited data

How the results depend on the processing

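Over all genes, 1961 were called higher and 2469 lower, with ranges of 1294 to 1877 and 1396 to 2471 on leaving out single arrays (1294 and 1396 without Ebf2-negative replicate 3, and 1586 lower without Ebf2-negative replicate 1) and 227 and 15596 with poly-A centring. Of the 10 genes, 3 were called higher, 3 to 4 without single arrays, and 5 after a further quantile normalization, with the mean of all probe sets, or with the probe set of the highest group mean (added after seeing the data). With poly-A centring 0 were higher and 5 lower. Of the 20 probe sets, 3 to 6 were called without single arrays. Of 104 measured genes of the 8 related lists, 37 were higher and 8 lower, with 23 to 34 and 4 to 8 without single arrays, 5 lower after a further quantile normalization or with 75th percentile centring, and 1 higher and 63 lower with poly-A centring. Poly-A centring, a shift of -2.48 for all genes, gave -0.13 for Egr1, -1.08 for Egr2, -2.39 for Egr3, -1.94 for Nr4a2, -1.93 for Nr4a3, -1.45 for Ier2, -1.56 for Ier3, -0.71 for Dusp1, -2.22 for Btg2, -0.65 for Fos, -1.07 for Mrtfb, -1.22 for Crtc3, -0.24 for Nab2, -0.64 for Rxra, -0.76 for Nab1, -0.38 for Spry1, -0.78 for Dusp16, -1.22 for Dusp8, -1.48 for Btg1 and -0.20 for Hspa1a, and left Nr4a1 at 0.16. Leaving out single arrays gave -0.032 to 0.18 for Egr3 (probe set 1421486_at), -0.17 to 0.49 for Btg2 (1448272_at), -0.029 to 1.46 for 1416250_at of Btg2, and -0.85 to 0.73 and -0.71 to 0.74 for 1447863_s_at and 1455034_at of Nr4a2, and 1447863_s_at was at -0.15 with array weights. The mean of Mapk8 probe sets was 0.40. Median and 75th percentile centring moved the median of all genes by -0.06 and 0.12, and leaving out probe sets with a mean log2 under 5 by -0.40. That filter removed all probe sets of Egr2 and Egr3. Egr1, Nr4a1 and Dusp1 were called under all settings but poly-A centring. The cause of these changes was not tested beyond what each setting alters by construction.

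The replicate numbers were not shown to pair the arrays: same-numbered arrays correlated in their deviations from the group means at 0.06, 0.11 and 0.03 across genes, and 5 of 6 arrays correlated best with their own number. With the replicate number as a block, 1884 genes were called higher and 2335 lower, 4 of the 10 genes were higher and 4 of the 20 probe sets, with 1436329_at of Egr3 at an adjusted p of 0.0736. With 3 arrays per group and no detection calls in the files, levels near the array medians, as for Egr2, Egr3, Nr4a2 and Nr4a3, have uncertain differences.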
